A study of Mus musculus with 16 samples.

Results

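The genes *T*, *Eomes*, *Mixl1*, *Mesp1*, *Mesp2*, *Tbx6*, *Msgn1*, *Evx1*, *Gsc* and *Lhx1* encode transcription factors of the primitive streak and of the mesoderm that leaves it. They were taken by name, and make up 10 of the 29453 genes in the matrix of unique molecular identifier (UMI) counts. The cells came from chimeric mouse embryos in which CD1 *Stat3* null embryonic stem cells (ESCs) with a tdTomato reporter had been injected into wild-type (WT) CD1 blastocysts. After dissociation at embryonic day (E) 7.5, E8.5 or E9.5, tdTomato+ cells (null, donor) and tdTomato- cells (WT, host) were sorted and sequenced as separate libraries, with 2 libraries of each genotype at both E7.5 and E8.5 and 4 of each genotype for E9.5. The null allele is a zygotic deletion of the exons for the SH2 and transactivation domains. Every null cell descends from cultured ESCs and carries the reporter, whereas WT cells have neither history, so these differences cannot be told apart from the loss of *Stat3*. Embryos were pooled at E7.5, where the study had classed them as large or small, and at E8.5. At E9.5 the study counts 2 embryos against 4 libraries of each genotype, so n = 4 there is a number of libraries. The comparisons ask how the 10 genes changed over the stages, in which cells they were read, and whether null cells expressed them as host cells did.

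During gastrulation, epiblast cells under Nodal, BMP and Wnt signals enter the primitive streak, lose their epithelial form and emerge as mesoderm or endoderm. *Eomes* and *T* are T-box factors that open this programme, *Mixl1* and *Evx1* are homeobox genes of the streak, *Gsc* and *Lhx1* mark its anterior end and the organizer, and *Mesp1* marks the mesoderm as it leaves, including future heart cells. Later the tail bud takes over from the streak, where *T* maintains neuromesodermal progenitors (NMPs) and notochord, *Tbx6* and *Msgn1* commit cells to presomitic mesoderm, and *Mesp2* sets the border of the next somite.

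The stretches upstream of *T*, *Msgn1* and *Tbx6* are printed because these genes shared their cell types (below), and because Wnt signalling, which acts through TCF/LEF factors, is a known input to *T* and *Msgn1*. RefSeq promoters (GRCm38.p6, 250 bases upstream of the annotated start) were given for 9 of the 10 genes, all but *Mixl1*. The TCF/LEF letters CTTTGA, read on both strands, stood in 3 of these 9, *T*, *Msgn1* and *Mesp1*, beside 13.8% of 32851 promoters of the same length. In GRCm38 *T* lies at chromosome 17, 8434423 to 8442496 (forward strand), *Msgn1* at chromosome 12, 11208360 to 11208972 (reverse), and *Tbx6* at chromosome 7, 126781483 to 126785560 (forward), and each stretch shown ends at the base before its gene. Capitals mark the match, 5′ to 3′ on the strand of the gene.
*T*, chr17:8434173-8434422, forward strand, match 234 to 229 bases before the RefSeq start: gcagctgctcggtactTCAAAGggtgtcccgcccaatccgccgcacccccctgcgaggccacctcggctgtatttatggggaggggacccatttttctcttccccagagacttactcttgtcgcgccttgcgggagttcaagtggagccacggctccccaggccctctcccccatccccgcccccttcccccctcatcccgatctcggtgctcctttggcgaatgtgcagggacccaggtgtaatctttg
*Msgn1*, chr12:11208973-11209198, reverse strand, matches 202 to 197 and 143 to 138 bases before the RefSeq start: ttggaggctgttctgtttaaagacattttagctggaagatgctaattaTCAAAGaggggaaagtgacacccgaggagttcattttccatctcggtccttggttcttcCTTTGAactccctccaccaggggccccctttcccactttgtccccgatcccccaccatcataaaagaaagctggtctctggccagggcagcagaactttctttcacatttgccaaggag
*Tbx6*, chr7:126781233-126781482, forward strand, no match: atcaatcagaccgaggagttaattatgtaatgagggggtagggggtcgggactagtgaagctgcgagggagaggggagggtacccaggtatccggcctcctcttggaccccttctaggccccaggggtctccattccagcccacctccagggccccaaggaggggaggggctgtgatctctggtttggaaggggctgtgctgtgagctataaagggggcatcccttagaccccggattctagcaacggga
The *Msgn1* stretch is shown for the 226 bases outside the annotated gene, and its RefSeq start, from which the matches are counted, lies 24 bases further on, inside the gene. The *Mesp1* window is not shown, as 198 of its 250 bases lie inside the annotated gene, its matches among them. The STAT letters TTCNNNGAA (7.02% of all promoters), the T-box letters GGTGTGA (3.33%) and the FOXH1 letters TGTGNATT (3.18%) were in none of the 9 windows. A match is a run of letters and not a site of binding.

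After the authors' quality filter 37841 cells in 87 cell types were analysed, between 360 and 4327 cells and 20682659 to 138613245 UMIs per library. Levels are given as CPM, the UMIs of a gene per 1000000 UMIs of the library or cell type. At this depth 3 UMIs correspond to 0.0216 to 0.145 CPM. The targeted gene, *Stat3*, whose reads outside the deletion can remain, had 8.06 ± 1.76 CPM in WT against 1.34 ± 0.26 in null libraries of E7.5 (SD, n = 2 each). For E8.5 the means were 7.67 ± 0.0862 against 2.04 ± 0.705 (n = 2 each), and for E9.5 6.48 ± 0.426 against 2.24 ± 0.21 (n = 4 each). It was lower in every null library than in every WT library of its stage. A tdTomato UMI was found in 89.8 to 98.3% of the cells of the null libraries except E8.5 null B, where it was found in 72.3%. The libraries named E9.5 WT C and WT D share 292 cell barcodes among the cells analysed (15.3% of the smaller library, against at most 0.556% in any other pair of libraries). Over all cells of the matrix these 2 libraries share 375 barcodes, of which 12 (3.2%) had the same cell type label in both. How the sharing arose was not tested. Tests that use E9.5 WT libraries were therefore also run without both, whereas pooled levels and shares of E9.5 WT cells include both.

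All 10 genes had their highest group mean at E7.5, in WT and in null libraries. *T*, which gives the streak its identity, was read at 62.1 and 93.7 CPM in the WT libraries (A and B) and 83.1 and 71.1 in the null libraries at E7.5. By E8.5 it had dropped to 7.25 and 10.8 in WT and 6.27 and 12.97 in null libraries. Every E8.5 library lay far below every E7.5 library, while the genotypes overlapped at both stages. *Eomes*, needed for the exit of mesoderm and for endoderm, was at 32.2 and 57.3 CPM in WT and 4.39 and 46.9 in null libraries at E7.5. By E8.5 it was down to 0.0844 and 0.214 in WT and 0.106 and 0.422 in null libraries, which is 7 to 16 UMIs a library. *Mesp1* was at 33.8 and 161 CPM in WT and 55.5 and 139 in null libraries at E7.5. The E8.5 libraries held it at 0.808 and 0.722 CPM in WT and 1.1 and 0.996 in null. *Mixl1* was at 6.81 and 14.4 CPM in WT and 13.3 and 28.3 in null libraries at E7.5. The E8.5 levels were 0.41 and 0.602 in WT and 0.495 and 0.302 in null libraries. For these 4 genes every E8.5 library lay below the lowest E7.5 library of its genotype.

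The other 6 genes were also highest at E7.5. *Tbx6* was at 14.9 and 9.71 CPM in WT and 19.4 and 17.6 in null libraries of E7.5, and at 1.99 and 2.34 in WT and 2.1 and 1.96 in null libraries one stage later. *Msgn1* went from 1.88 and 1.38 CPM in WT and 3.06 and 1.21 in null libraries to 0.314 and 0.308 in WT and 0.265 and 0.241 in null libraries. For *Tbx6* and *Msgn1* too the stages did not overlap. *Evx1* went from 11 and 14.1 CPM in WT and 12.4 and 14.7 in null libraries to 3.01 and 4.83 in WT and 2.55 and 4.22 in null libraries. *Lhx1* went from 24.6 and 73.4 CPM in WT and 35.3 and 52.3 in null libraries to 7.03 and 10.4 in WT and 6.11 and 12.3 in null libraries. *Gsc* went from 2.83 and 3.3 CPM in WT and 2.32 and 4.54 in null libraries to 0.712 and 1.39 in WT and 1.33 and 2.23 in null libraries, so that E8.5 null B came close to E7.5 null A. *Mesp2* reached 5.36 CPM in E7.5 WT B and 7.59 in E7.5 null B, and lay between 0.211 and 0.715 CPM in the 4 libraries of E8.5. From E8.5 on *Eomes* rested on 7 to 50 UMIs a library and *Msgn1* on 3 to 40.

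**Figure D1:**
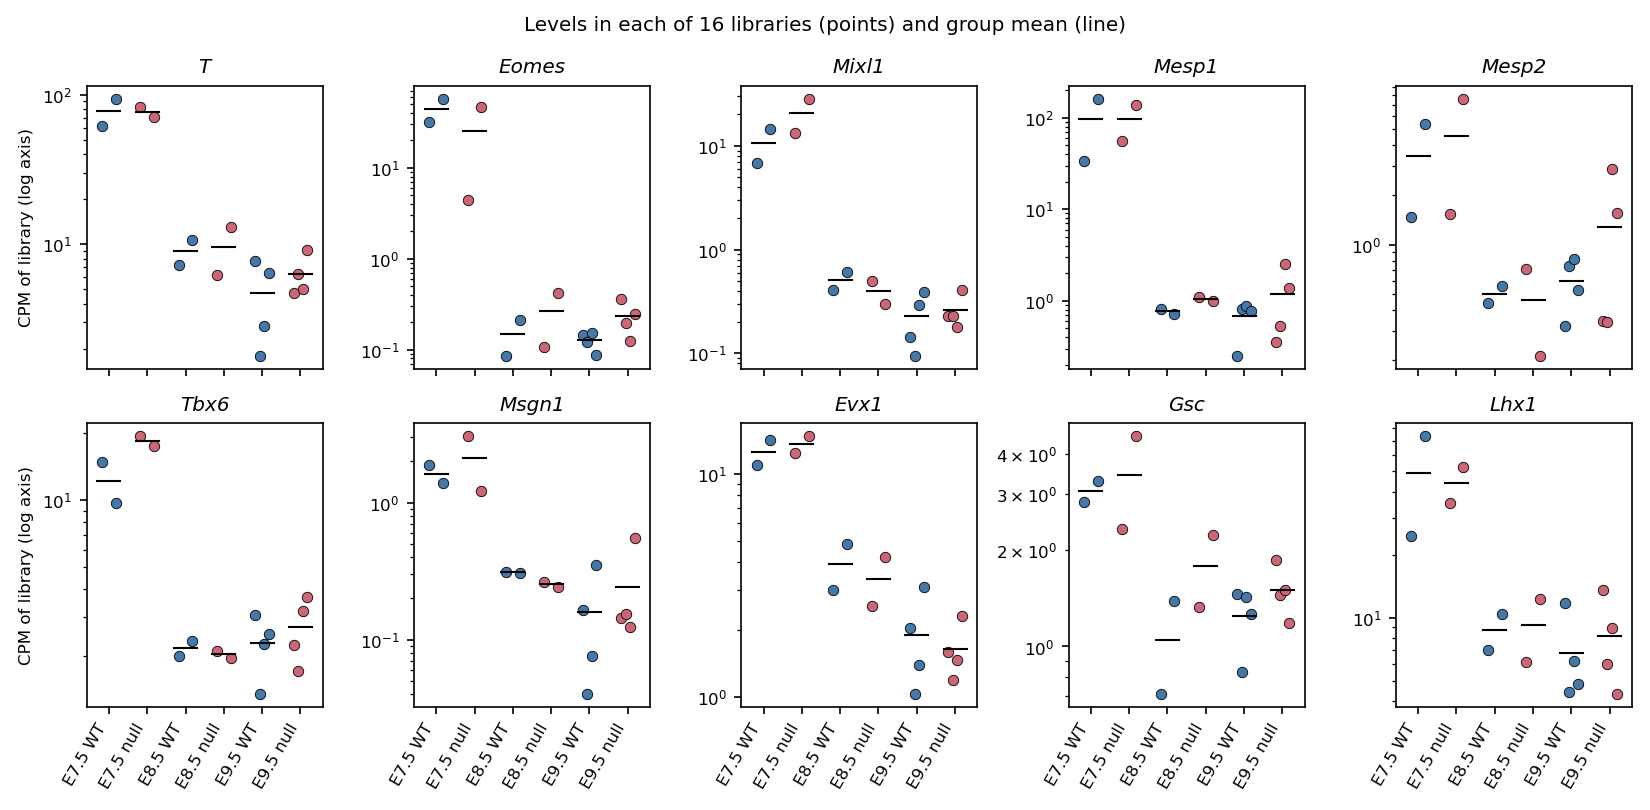
Level of each gene (log axis, CPM of the whole library) in 16 libraries, in order of letter within each group. WT is blue, null is red, points are libraries and lines are group means. In every panel the E7.5 means lie highest, and points of the genotypes overlap at most stages.

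In WT cells 9 of the 10 genes fell from E7.5 to E8.5 (edgeR quasi-likelihood test over whole libraries, Benjamini-Hochberg adjusted over 15565 genes, called at an adjusted p under 0.05 and an absolute log2 fold change over 1), beside 8.55% of all genes tested. The log2 fold changes were -8.08 ± 1.12 (SE) for *Eomes*, -6.84 ± 1.04 for *Mesp1*, -4.24 ± 0.57 for *Mixl1* and -2.96 ± 0.60 for *T*. *Lhx1*, *Tbx6*, *Msgn1*, *Evx1* and *Gsc* fell by between 2.35 (*Lhx1*) and 1.39 (*Gsc*) on the log2 scale, with adjusted p of at most 0.0327 (edgeR). *Mesp2* was at -2.64 ± 1.10 and was not called (adjusted p = 0.0683, edgeR); DESeq2 called it (adjusted p = 0.0405). The members' median was -2.49, beside 0.01 over all genes tested.

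In null cells 8 genes fell over the same interval, beside 5.69% of all genes. The log2 fold changes were -6.92 ± 1.12 for *Eomes*, -6.40 ± 1.03 for *Mesp1*, -5.48 ± 0.61 for *Mixl1*, -3.08 ± 0.37 for *Tbx6*, -2.99 ± 0.80 for *Msgn1*, -2.95 ± 0.61 for *T*, -2.19 ± 0.67 for *Lhx1* and -1.93 ± 0.45 for *Evx1*. *Gsc* (-0.84 ± 0.39, adjusted p = 0.0996, edgeR) and *Mesp2* (-2.97 ± 1.12, adjusted p = 0.0515, edgeR) were not called, and DESeq2 called *Mesp2* here too (adjusted p = 0.0124). The members' median was -2.98, beside 0.04 over all genes. The change itself was compared between genotypes as an interaction, and none of the 10 genes differed at an adjusted p under 0.05, beside 1.41% of all genes. The largest of these differences was that of *Mixl1*, which had a null minus WT value of -1.24 ± 0.80 and an adjusted p of 0.653 (edgeR). *T*, *Eomes*, *Mixl1*, *Mesp1* and *Tbx6* were called in both genotypes in all 21 settings run. Leaving out E7.5 WT B, or E8.5 WT A, ended the WT calls of *Msgn1*, *Evx1*, *Gsc* and *Lhx1*, and that of *Msgn1* also ended without E7.5 WT A or E8.5 WT B. In null cells *Msgn1*, *Evx1* and *Lhx1* were not called without E8.5 null A, *Msgn1* without E7.5 null A and *Lhx1* without E7.5 null B.

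**Figure D2:**
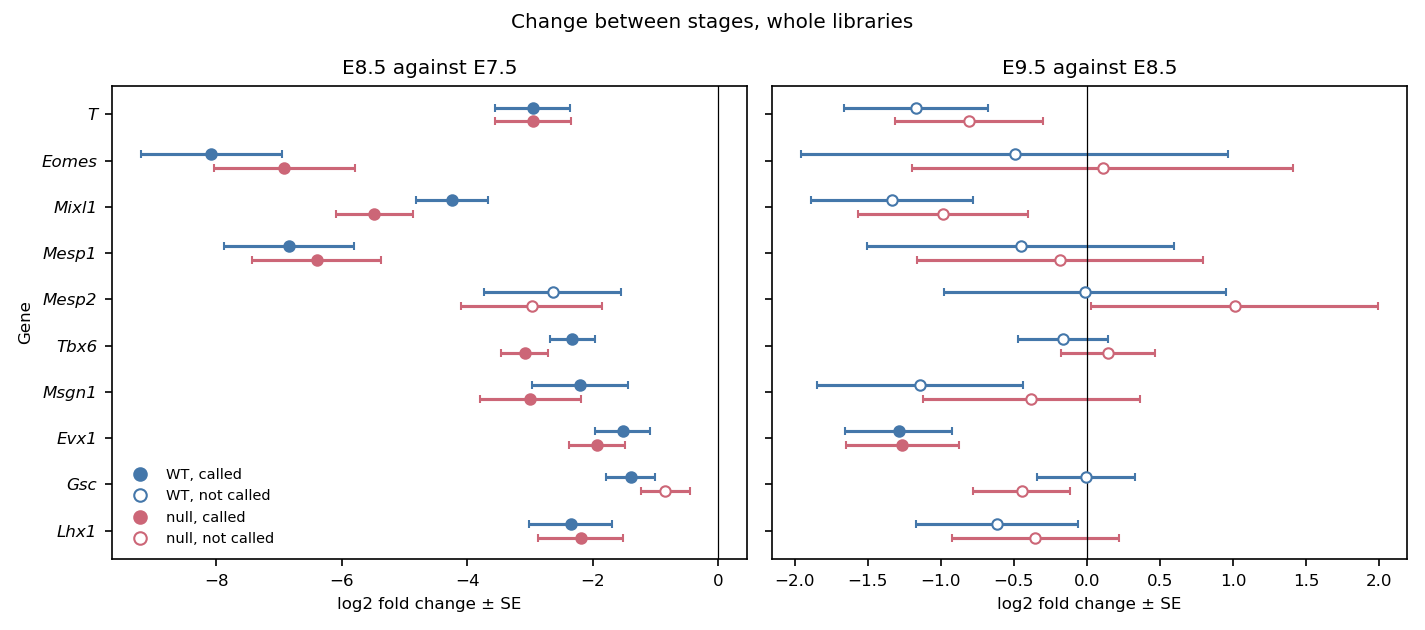
Log2 fold change ± SE of each gene between consecutive stages in whole libraries, WT in blue and null in red, with filled points called. Between E7.5 and E8.5 the 10 genes lie below 0 in both genotypes, and between E8.5 and E9.5 the filled points are those of *Evx1*.

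From E8.5 to E9.5 only *Evx1* was called lower, in WT (-1.29 ± 0.37, adjusted p = 0.0143, edgeR) and in null libraries (-1.26 ± 0.38, adjusted p = 0.0194), beside 3.23% and 3.9% of all genes. In neither genotype was a member called higher, beside 6.82% of all genes in WT and 6.52% in null libraries. *Evx1* had 3.01 and 4.83 CPM in the WT libraries of E8.5 and 2.02, 1.03, 1.39 and 3.1 in those of E9.5. E9.5 WT D thus lay above the lower E8.5 library. The WT call was lost without E8.5 WT B (-0.93, adjusted p = 0.18) and the null call without E8.5 null B (-0.91, adjusted p = 0.183), both by edgeR. In WT cells *T* was at -1.17 ± 0.49 and *Mixl1* at -1.33 ± 0.55, with adjusted p of 0.0781 and 0.0712 (edgeR), and DESeq2 called both. Without WT C and WT D *Mixl1* was called as well, at -2.29 (adjusted p = 0.0206, edgeR). No member changed its null effect between E8.5 and E9.5 at an adjusted p under 0.05, beside 0.0321% of all genes.

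Other genes of the streak, from 8 lists of pathway and stage genes, moved in part with the members in WT cells from E7.5 to E8.5. Of all genes tested 8.55% fell and 9.16% rose over that interval. Of 10 epiblast genes 7 fell and 0 rose (median log2 fold change -3.61), led by *Utf1* (-6.37), the pluripotency factors *Pou5f1* (-5.81) and *Nanog* (-5.74), and *L1td1* (-4.79). Of 17 Nodal, BMP and FGF signals 7 fell and 1 rose (median -1.23), led by *Fgf5* (-4.59), *Nodal* (-3.88), *Fgf3* (-3.79) and *Fgf4* (-2.84). Of 16 Wnt signals, Wnt targets and growth zone genes 8 fell and 0 rose (median -1.13), led by *Wnt8a* (-3.76), *Cdx1* (-2.48), *Nkx1-2* (-2.26) and *Wnt3* (-2.10). The list of node, notochord and definitive endoderm genes had 5 lower and 1 higher of 12 (median -0.67), among them the Nodal antagonist *Cer1* (-4.91) and the notochord gene *Noto* (-4.46). Early migrating mesoderm had 2 lower, *Aplnr* (-2.03) and *Hand1* (-1.90), and 0 higher of 12 (median -0.49).

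The remaining lists had positive medians in WT cells. Presomitic and segmentation genes had 1 lower, *Dll3* (-1.42), and 2 higher, *Uncx* (3.37) and *Tbx18* (2.31), of 15 (median 0.30). Genes of the epithelial to mesenchymal transition had 2 lower, *Cdh1* (-2.81) and *Epcam* (-1.79), and 3 higher, *Twist1* (1.63), *Zeb1* and *Sox9* (1.42 each), of 12 (median 0.42). Of 10 genes of intermediate mesoderm and interneurons, where *Lhx1* and *Evx1* act later, 5 rose and 0 fell (median 1.56), led by *Tfap2b* (8.67), *Pax8* (5.24), *En1* (4.27) and *Osr1* (2.44). In null cells, where 5.69% of all genes fell and 10.1% rose, the counts over the same interval were 7 lower and 1 higher for epiblast, 8 and 0 for Nodal, BMP and FGF, 9 and 0 for Wnt, 3 and 2 for the node list, 5 and 0 for early migrating mesoderm, 4 and 2 for presomitic genes, 1 and 3 for the transition, and 0 and 6 for intermediate mesoderm.

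At E7.5 the 2 libraries of each genotype held very different shares of streak cells. Cells labelled Primitive Streak, Nascent mesoderm or Epiblast made up 2.07% of WT A and 21.2% of WT B, and 1.8% of null A and 21.4% of null B. The libraries named B thus held about the same share in both genotypes, as did those named A. The letters follow the order of library names and do not pair libraries by embryo, and which libraries came from large or small embryos is not given in the sources used here. *Mesp2* was at 1.47 and 5.36 CPM in WT A and B and at 1.53 and 7.59 in null A and B. In each genotype B was the higher library for *Mesp1*, *Eomes*, *Mixl1*, *Mesp2*, *Lhx1*, *Evx1* and *Gsc*. For the presomitic genes *Msgn1* and *Tbx6* A was the higher library in each genotype, and for *T* WT B and null A were. Summed erythroid markers were at 386 CPM in WT A and 366 in null A, and at 43.9 in WT B and 52.1 in null B; their part in the members' levels was not tested. These are sums over all cells, in which fewer cells of a type and less RNA per cell cannot be told apart; the values by cell type below separate them where cells sufficed.

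Most *Mesp1* and *Lhx1* UMIs of the B libraries came from those 3 cell types. They gave 59.7% of the *Mesp1* UMIs in WT B and 54.5% in null B, against 5.01% in WT A and 5.6% in null A. For *Lhx1* the shares were 57.2% and 50.6% in the B libraries, and 4.48% and 2.32% in the A libraries. In the remaining cells *Lhx1* was at 24.1, 39.8, 35.1 and 32.9 CPM in WT A, WT B, null A and null B. *Mesp1* outside the 3 types was at 32.8 and 53.3 CPM in the A libraries and 82.2 and 80.6 in the B libraries (WT and null), so a difference between A and B remained there.

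Much of the host *Eomes* came from tissues in which few donor cells were found. Extra-embryonic (ExE) ectoderm, a trophoblast tissue in which *Eomes* is also active, held 46.1% of the *Eomes* UMIs of E7.5 WT cells. Of the *Eomes* level of 32.2 CPM in WT A, 28.6 came from ExE ectoderm, and of 57.3 in WT B, 19.6. In null A ExE ectoderm gave 0.0886 CPM from 2 cells, and null B held no cell of that label. Visceral endoderm, ExE endoderm, ExE ectoderm and Parietal endoderm together made up 21.4% and 15.1% of the cells of WT A and B, and 0.184% and 0% of null A and B. The summed level of 6 ExE ectoderm markers was 278 to 441 CPM in WT and 15.6 to 20.3 in null libraries. Without these 4 tissues *Eomes* was at 4.0 and 42.1 CPM in WT A and B and at 4.27 and 46.9 in null A and B. The B libraries were high and the A libraries low in both genotypes.

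**Figure D3:**
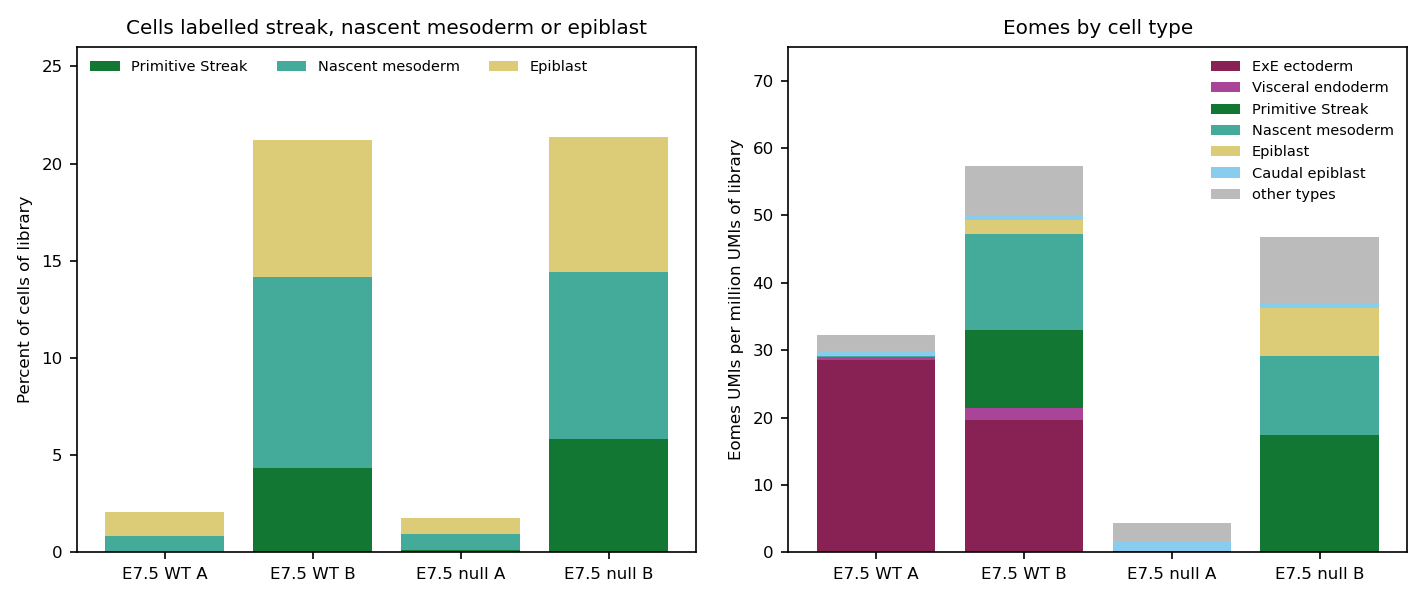
E7.5 libraries: at left the percent of cells labelled Primitive Streak, Nascent mesoderm or Epiblast, at right the *Eomes* level in CPM of the library, stacked by cell type. The streak types make up about the same share of both B libraries, and ExE ectoderm adds 28.6 and 19.6 CPM of *Eomes* to the WT libraries against at most 0.0886 to the null libraries.

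Within the streak and its first mesoderm, the members divided by cell type. Cells labelled Primitive Streak were found in WT B (77 cells), null B (21) and null A (3), and not in WT A. In them *Eomes* stood at 267 CPM in WT B and 304 in null B, *T* at 147 and 84.4, *Mesp1* at 131 and 140, and *Mixl1* at 26.8 and 86.1. *Mixl1* there rests on 63 and 102 UMIs in 1 library per genotype, which allows no test. *Gsc* was in these cells at 3.4 CPM in WT B and 22.0 in null B, on 8 and 26 UMIs, likewise without a test. In Nascent mesoderm, where the pooled level of *Mesp1* was the highest of any type of 30 or more cells, it reached 902 CPM in WT B (176 cells) and 806 in null B (31 cells). *Lhx1* reached 418 and 305 CPM in the same cells, *Mesp2* 39.5 and 50.9, and *Eomes* 143 and 141. *T* was there at 231 and 183 CPM, and *Mixl1* at 68.3 and 138 (368 and 238 UMIs). In the 6 and 18 cells of that label in WT A and null A, *Mixl1* was at 17.4 and 23.1 CPM (4 and 16 UMIs). These differences were not tested. With cells thinned to 10000 UMIs each, 96.2% of WT Nascent mesoderm cells had a *Mesp1* UMI (95% exact binomial interval 92.2 to 98.4%, counting error only; 99.5% before thinning). In null cells of that label the share was 87.8% (75.2 to 95.4%, 49 cells; 93.9% before thinning). Of these null cells 18 came from null A, where *Mesp1* was at 405 CPM, while 176 of the 182 WT cells came from WT B, so the shares mix libraries differently. In ExE ectoderm of the same WT libraries the share was 6.41% (17.8% before thinning, at medians of 38014 UMIs a cell there and 29149 in WT Nascent mesoderm).

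*T* was highest in the node, the organizer at the anterior streak. It was read there at 1324 and 1130 CPM in WT A and B (10 and 11 cells) and at 1388 and 817 in null A and B (40 and 4 cells). The Caudal epiblast, which feeds the streak, held *T* at 353 ± 191 CPM in WT and 263 ± 32.3 in null libraries (SD, n = 2 each).

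**Figure D4:**
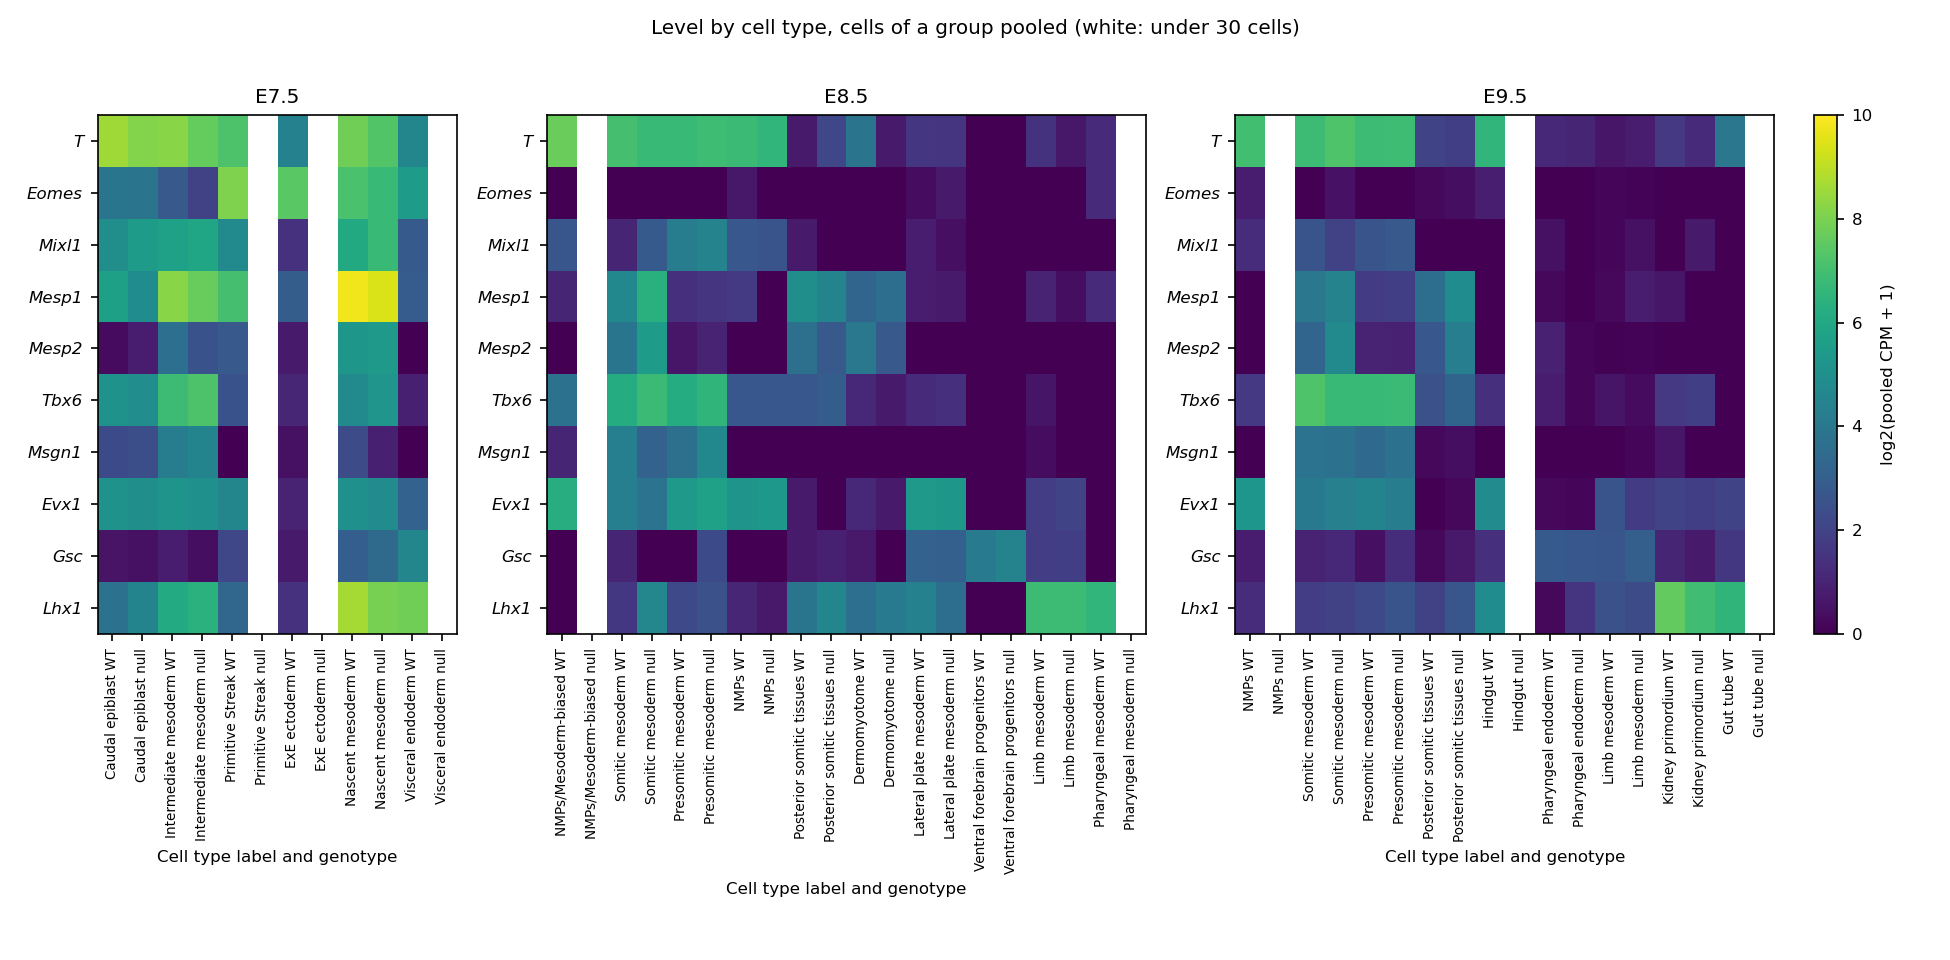
Level of each gene (rows) as log2(CPM + 1) in cells pooled by stage, cell type label and genotype (columns), for types of 30 or more WT cells that were among the 2 highest of a gene in WT cells. At E8.5 and E9.5 the types shown hold at most 1.31 CPM of Eomes, and Tbx6 and Msgn1 are highest in Presomitic and Somitic mesoderm, while T is also high in NMPs and, at E9.5, in Hindgut. The Notochord and Node, which also gave T, had under 30 WT cells at these stages and are not shown. At E7.5 the Node, with 10 and 11 cells in WT A and B, is not shown either.

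The cells labelled Intermediate mesoderm at E7.5 carried the presomitic genes. There *Tbx6* was at 113 ± 30.1 CPM in WT and 169 ± 42.3 in null libraries, *Msgn1* at 17.8 ± 4.42 and 18.2 ± 6.6, and *T* at 302 ± 108 and 194 ± 3.54 (SD, n = 2 each). This label supplied 51.9% of the WT and 70.2% of the null *Tbx6* UMIs, and 60.3% and 72.1% of those of *Msgn1*. Most markers of intermediate mesoderm were not higher there. In these 384 cells *Pax2* was at 0.21 CPM against 3.17 in other E7.5 cells, *Wt1* at 0.07 against 0.707 and *Gata3* at 0.98 against 7.67, with *Osr1* (6.86 against 2.62) and *Pax8* (3 UMIs) higher. All 5 presomitic markers, all 5 of Nascent mesoderm and 3 of 5 of Caudal epiblast were higher than elsewhere at E7.5, the presomitic *Hes7* at 103 against 7.77 CPM and *Dll1* at 117 against 7.12. The cells are called by their label here. Of the other 11 labels checked over all stages, 10 had every marker higher than elsewhere, and Caudal epiblast 4 of 5.

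For 3 pairs of members, chosen after their values were seen, UMIs of both genes were counted in the same E7.5 cells after thinning. Of cells with a *Mesp2* UMI, 4 of 5 in WT A, 67 of 73 in WT B, 19 of 23 in null A and 17 of 17 in null B also had one of *Mesp1*, against 11% to 29.5% of the cells without *Mesp2*. Of cells with a *Msgn1* UMI, 12 of 16 in WT A, 18 of 18 in WT B, 45 of 51 in null A and 3 of 5 in null B had one of *T*, against 20.7% to 28.6% of the others. Of the *Mixl1* cells 64.9% to 77.3% had *T* over the 4 libraries, and of those without *Mixl1* 19.1% to 25.5%. In ExE ectoderm, taken as a background since it is not a streak derivative, *Mesp1* was found in 0.877% of cells of WT A and 10.2% of WT B, and *T* in 7.02% and 18.6%. The part of such background UMIs in the counts above was not tested, and the null libraries held 2 cells of that label. Cells with and without a gene also differ in cell type, so these counts describe where the UMIs fell together and are no test.

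At E8.5 and E9.5 *Tbx6* and *Msgn1* were read mainly in Presomitic and Somitic mesoderm, and *T* and *Mixl1* in tail bud types and in the Notochord. Presomitic mesoderm held *Tbx6* at 69.2 and 77.9 CPM in WT libraries of E8.5 and at 97.2 and 42.4 in null libraries, the last on 5 UMIs in 4 cells. At E9.5 *Tbx6* was there at 114, 117, 123 and 96.3 CPM in WT A to D and at 95.6, 121, 153 and 101 in null A to D, so the genotypes overlapped. Presomitic mesoderm gave 37.7% of the WT and 39.4% of the null *Tbx6* UMIs at E9.5, and Somitic mesoderm 34.8% and 28.1%. *Msgn1* had the same sources, at 44.6% and 50.6% in Presomitic and 40% and 37% in Somitic mesoderm. *Mixl1* was at 17.3 and 19.1 CPM in Presomitic mesoderm of WT A and B at E8.5, and at 24.0 in null A and 0 in null B (4 cells). Its UMIs at E9.5 were few, with 25 of 89 WT UMIs from the Notochord (28.1%) and 15 from Presomitic mesoderm (16.9%). In null cells Presomitic mesoderm gave 20 of 94 (21.3%), NMPs 13, Limb mesoderm 12 (12.8%) and the Notochord 8 (8.51%). At E9.5 the Notochord gave 515 *T* UMIs from 16 WT cells, 28% of the WT total, and 406 from 13 null cells, 18.2%, with Presomitic mesoderm next in null cells at 400 UMIs (17.9%). At E8.5 the first source of *T* was Presomitic mesoderm in WT (14.9%) and the Notochord in null cells (20%), and the Node gave 9.04% and 12.1% from 6 cells each. The Hindgut, a further source, gave 6.63% in WT at E9.5. After thinning, 52.2% of the 90 WT Presomitic mesoderm cells at E9.5 had a *T* UMI, and 54 of the 90 had one of *Tbx6*. In WT Erythroid cells of that stage, which should lack both, the shares were 0.263% and 0.789% (median 22601 UMIs a cell before thinning, against 31150 in Presomitic mesoderm).

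*Mesp1* and *Mesp2* were read in somitic types after E7.5. At E8.5 the pooled level of *Mesp1* was highest in Posterior somitic tissues in WT (30.1 CPM) and in Somitic mesoderm in null cells (79.9 CPM, 91 of 91 UMIs from null A). Within Posterior somitic tissues *Mesp1* was at 52.4 and 2.8 CPM in WT A and B, and at 3.47 and 72.0 in null A and B. At E9.5 the range in that type was 0.622 to 48.6 CPM over the WT and 0.803 to 67.6 over the null libraries. *Mesp2* in Dermomyotome at E9.5 was at 0, 0.722, 6.17 and 0.811 CPM in WT A to D and at 0, 0, 32.0 and 33.0 in null A to D. Both genes were high in some libraries and near 0 in others of the same genotype.

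*Lhx1*, *Evx1* and *Gsc* were also read outside the streak, tail bud and somitic types. *Lhx1*, which forms the kidney anlage and specifies interneurons, was read at 360, 300, 373 and 443 CPM in the Kidney primordium of WT A, WT B, null A and null B at E8.5 (5 to 19 cells each). Limb mesoderm was its largest source at E8.5 (33.5% of WT and 36.5% of null UMIs), and Dorsal midbrain neurons at E9.5 (52.6% and 66.6%). In those neurons *Lhx1* ran from 22.2 to 109 CPM over WT and from 27.3 to 117 over null libraries. *Evx1* was read in Lateral plate mesoderm at 41.1 ± 3.1 CPM in WT and 37.7 ± 4.09 in null libraries of E8.5 (SD, n = 2 each). *Gsc* peaked in Visceral endoderm at E7.5 (22.8 CPM in WT cells, 56 of 56 UMIs from WT B), then in Ventral forebrain progenitors at E8.5 (15.9 CPM WT, 21.2 null, pooled), and Limb mesoderm was its largest source at E9.5 (37.3% of WT and 39.5% of null UMIs).

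The genes most like each member over 93 pooled WT profiles (stage and cell type, at least 50 cells; Pearson's r of log2(CPM + 1), a description over profiles that share libraries) followed these tissues. *Msgn1* and *Tbx6* were like each other (0.90), and both were nearest to *S1pr5* (0.94 and 0.90), with *Hes7* (0.87) and *Dll3* (0.81) next for *Tbx6*. *T* was nearest to *Mixl1* among the members (0.88), and *Cdx2* (0.76) outside them. *Mesp2* was nearest to *Ripply2* (0.80), a regulator of the somite border, *Mesp1* to *Tdgf1* and *Vrtn* (0.84 each), and *Eomes* to *Dppa5a* (0.88). *Evx1* and *Lhx1* were nearest to their antisense neighbours *Evx1os* (0.95) and *Lhx1os* (0.90), whose reads cannot be told apart from theirs where counting ignores strand, and *Gsc* had no gene above 0.54 (*Amn*).

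Between null and WT libraries none of the 10 members was called at any stage by edgeR, beside 2.62% of all genes at E7.5, 0.103% at E8.5, 0.745% at E9.5 and 0.964% for the mean of the stages. DESeq2 called 0 as well, and 0 had an unadjusted edgeR p under 0.05, beside 18.2% of all genes at the first stage, 5.26% at the next and 9.08% at the last, and 18.7% for their mean. The members' median log2 fold change was 0.15 at E7.5, 0.02 at E8.5 and 0.33 at E9.5, beside medians of 0.01, 0.00 and 0.00 over all genes. Within cell types (below) the members' medians had the other sign, at -0.24, -0.09 and -0.11. These cover 42, 11 and 12 comparisons of 10, 4 and 7 members, beside medians of 0.001, 0.002 and -0.001 over all such tests. The standard errors in whole libraries were wide: 0.34 to 1.01 at E7.5, 0.37 to 1.65 at E8.5 and 0.25 to 1.04 at E9.5. A p above the threshold does not show equal levels.

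At E7.5 *Mixl1* had the largest positive value (0.99 ± 0.48, adjusted p = 0.303, edgeR) and *Eomes* the only large negative one (-0.80 ± 0.74, adjusted p = 0.644, edgeR). These fits do not pair libraries, so the difference between the A and B libraries of a genotype counts as error in them. *Mixl1* was at 13.3 and 28.3 CPM in null A and B and at 6.81 and 14.4 in WT A and B. Without the 4 extra-embryonic tissues *Eomes* was at 0.14, and without E7.5 null B it was called, at -3.33 (adjusted p = 0.00753, edgeR), in a fit with 1 null library at that stage, null A, assumed to vary like the rest. *Tbx6* was the only member whose E7.5 null libraries (19.4 and 17.6 CPM) lay beyond the WT libraries (14.9 and 9.71). Of all genes tested 40.8% did not overlap there. Without the 4 extra-embryonic tissues *Tbx6* was at 18.9 and 11.3 CPM in WT A and B and at 19.4 and 17.6 in null A and B. The genotypes then overlapped. Its difference in whole libraries was 0.65 ± 0.34 (adjusted p = 0.341, edgeR). At E8.5 *Mesp1* (null above) and *Msgn1* (null below) did not overlap, 2 of 10 members beside 31.2% of all genes. At E9.5 all 10 members overlapped, beside 6.91% of genes that did not.

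**Figure D5:**
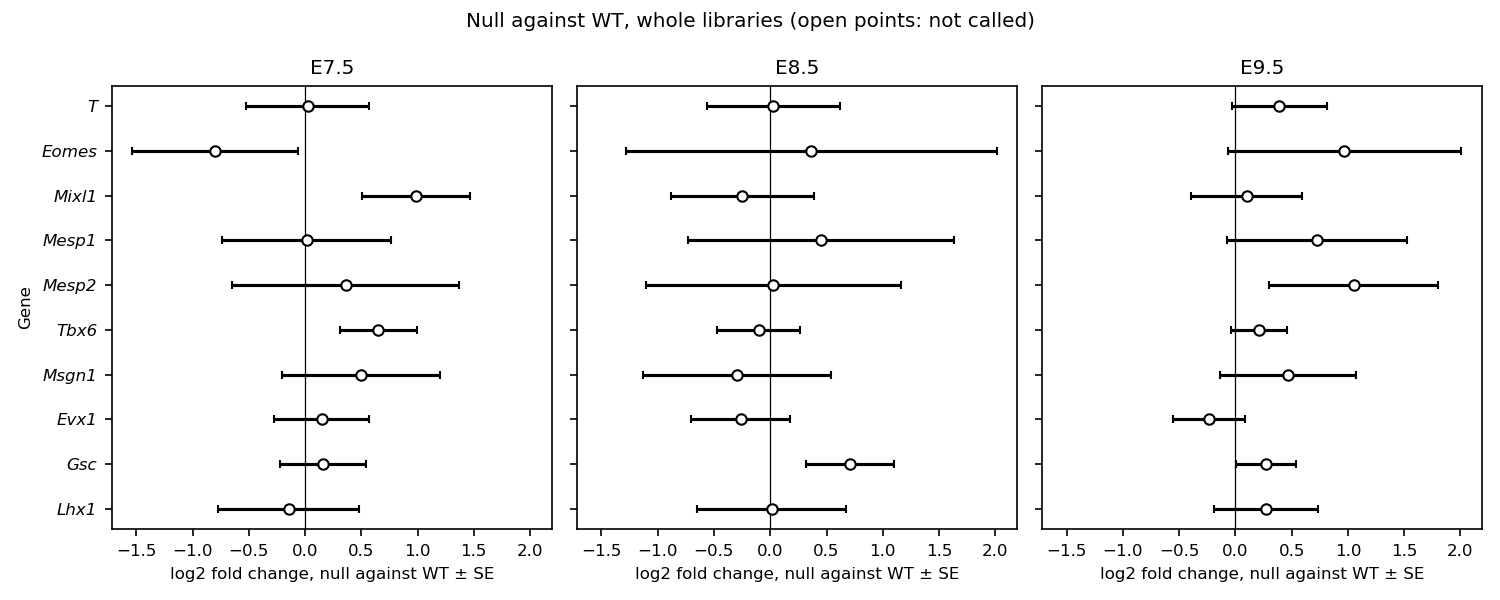
Log2 fold change of null against WT ± SE in whole libraries at each stage; open points are not called, as are all values shown. The values lie between -0.80 (*Eomes*, E7.5) and 1.05 (*Mesp2*, E9.5).

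At E9.5 the largest value was that of *Mesp2* (1.05 ± 0.75, adjusted p = 0.823, edgeR). It was at 0.32, 0.737, 0.822 and 0.533 CPM in WT A to D and at 0.346, 0.34, 2.84 and 1.55 in null A to D. The null libraries C and D lay above every WT library and null A and B below 3 of the 4. *T* was at 7.74, 1.78, 2.86 and 6.4 CPM in WT and 4.75, 6.29, 5.03 and 9.17 in null libraries (0.39 ± 0.42). Over all settings run on whole libraries, including the fit without WT C and WT D, no member was called between null and WT at E8.5 or E9.5.

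Within cell types 65 comparisons of a member between null and WT were possible (over 15 cells of the type in 2 or more libraries per genotype), 42 at E7.5 in 7 types, 11 at E8.5 and 12 at E9.5. Several types in which members were high had too few cells. At E7.5 WT A held 0 Primitive Streak, 6 Nascent mesoderm, 9 Epiblast and 10 Node cells. At E8.5 null B held 4 Presomitic mesoderm, 5 Somitic mesoderm, 14 NMP and 4 Notochord cells. These types were not tested at those stages. None of the 65 comparisons was called by edgeR, beside 0.186%, 0.0609% and 0.12% of all gene and type tests at the stages. An unadjusted p under 0.05 was found in 6 of the 42, 2 of the 11 and 2 of the 12, beside 4.06%, 4.32% and 6.26% of all those tests; genes and types of the same libraries are not independent. In fits over all stages without WT C and WT D the number called at E9.5 was 0 as well. The smallest adjusted p was that of *Mesp2* in Intermediate mesoderm at E7.5, at 11.4 ± 3.56 CPM in WT and 4.2 ± 0.912 in null libraries (log2 fold change -1.31 ± 0.38, adjusted p = 0.40, edgeR). In Paraxial mesoderm *Mesp2* lay the other way, at 3.83 ± 2.2 and 9.6 ± 0.978 CPM (1.10 ± 0.41, adjusted p = 0.837, edgeR). The other comparisons at E7.5 with an unadjusted edgeR p under 0.05 were *Lhx1* in Blood progenitors (0.88 ± 0.38) and Lateral plate mesoderm (0.44 ± 0.20), *T* in Lateral plate mesoderm (-0.51 ± 0.23) and *Tbx6* in Intermediate mesoderm (0.56 ± 0.23). At E8.5 they were *Lhx1* in Mesenchyme (-0.71 ± 0.32) and *Gsc* in Optic vesicle (1.37 ± 0.62). At E9.5 they were *Evx1* (-0.87 ± 0.40) and *Gsc* (0.43 ± 0.20) in Limb mesoderm. Among the values near 0 at E7.5, *Mesp1* in Lateral plate mesoderm was at 126 ± 24.6 and 119 ± 14.2 CPM (-0.08 ± 0.14), and *Lhx1* in Paraxial mesoderm at 85.6 ± 19.4 and 85.2 ± 20.6 (0.04 ± 0.18).

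Genes of the 8 lists were also compared between null and WT cells. Over all gene and type tests 0.186% were called at E7.5, 0.0609% at E8.5 and 0.12% at E9.5, and in whole libraries of E9.5 0.745% of genes. Whether the lists exceed these shares was not tested. Higher in null cells was *Cdx4*, a caudal homeobox gene, in Paraxial mesoderm at E7.5 (2.48 ± 0.38). Lower at E8.5 was the somite gene *Meox1* in Cranial mesoderm (-2.01 ± 0.26), Hindbrain floor plate (-2.74 ± 0.46) and Limb mesoderm (-1.50 ± 0.34). Lower at E9.5 were *Fgf8*, a signal of the growth zone, in Posterior somitic tissues (-1.13 ± 0.25) and *En1* in Amniotic ectoderm (-2.57 ± 0.45). These calls had an adjusted p of at most 0.0379 (edgeR). The list of each gene gave 84 (*Cdx4*), 99 (*Meox1*), 153 (*Fgf8*) and 102 (*En1*) tests within types at its stage. Without WT C and WT D neither E9.5 call held, with *Fgf8* at -1.18 (adjusted p = 0.0797, edgeR) and *En1* at -2.20 (adjusted p = 0.222, edgeR). In whole libraries *Tal1*, a blood regulator from the list of early migrating mesoderm, was lower at E9.5 (6.66 ± 2.45 CPM in WT and 2.55 ± 0.865 in null libraries, SD, n = 4 each, log2 fold change -1.41 ± 0.28, adjusted p = 0.0258, edgeR), where the summed erythroid markers were at 89.9 to 232 CPM in null and 2188 to 6842 in WT libraries. Without WT C and WT D *Tal1* was at -1.46 and not called (adjusted p = 0.0705, edgeR).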

How the data were processed

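Groups (stage and genotype) were taken from the stage and sort gate of each cell in the deposited cell table, as its library names match no sample title. Per the labels and the study's methods, libraries were made with the 10x 3′ v3 kit and the authors mapped reads to mm10 with Cell Ranger, with the tdTomato sequence added. The authors deposited raw UMI counts per gene and cell, with no normalization, a doublet call and cell types transferred from an atlas. The deposited table also gives each cell's percent of mitochondrial UMIs, computed by the authors. Doublets (3395 cells) and cells sorted as WT that had tdTomato UMIs (596) were left out. Counts were summed per library, or per library and cell type (more than 15 cells), and tested with edgeR 4.0.16 (filterByExpr, TMM, robust quasi-likelihood fit), with all 16 libraries in 1 fit for whole libraries and each stage and type alone otherwise. Of 29453 genes, 8184 were left out (predicted, mitochondrial, ribosomal protein, haemoglobin and sex-linked marker genes and tdTomato). The embryo pool of the study's design could not be fitted. DESeq2 1.42.0, no count filter, single-stage fits, other cell sets and leaving out libraries were alternatives. Named genes were the 10 members, called list genes (some results are not reported here) and the 3 nearest genes. The members and lists were chosen with earlier results of these data known. Scripts were tested on simulated data. Intervals and limits cover counting error only. Levels rest on 20682659 to 138613245 UMIs per library. No column of values was left unmatched. Promoters came from RefSeq, gene bounds from GENCODE.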

Additional observations from a re-analysis of the deposited data

Results flagged for a closer look

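Among the 20 groups of 4 E9.5 libraries (10 genes in 2 genotypes), 2 held a library far from the other 3 by Dixon's criterion, which flags about 1 group in 20 by chance. *Msgn1* was at 0.551 CPM in null D against 0.123 to 0.153 in the other null libraries. *Mesp1* was at 0.248 CPM in WT A against 0.777 to 0.885 in the other WT libraries.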

How the results depend on the processing

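Leaving aside the fits without 1 library, 69 counts of calls under an alternative stayed within 1.5 times the reported count and 4 did not. Of single genes 337 values kept their direction and side of the threshold, 6 newly passed it, 3 lost their call and 7 changed direction. The 3 lost calls were those of *Tal1*, *Fgf8* and *En1* at E9.5 without WT C and D. From E8.5 to E9.5 in WT cells 3 members were called by DESeq2 and 2 without E9.5 WT C and D, instead of 1. With no filter on low counts 1 member was called within types at E7.5 (*Lhx1* in Ectoderm) and 1 at E8.5 (*Lhx1* at the Midbrain/Hindbrain boundary), instead of 0. Differences between null and WT that changed sign, none of them called, were *Mesp2* at E8.5 by DESeq2 (-0.11), *Lhx1* at E8.5 with null cells lacking a tdTomato UMI left out (-0.060), *Evx1* at E9.5 without WT C and D (0.076), and, without the 4 extra-embryonic types at E7.5, *T* (-0.19), *Eomes* (0.14), *Mesp1* (-0.23) and *Evx1* (-0.10). The cause was not tested.

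Without 1 library at a time, the number of members called ranged from 0 to 1 between null and WT at E7.5 (*Eomes*, without null B), from 5 (without E7.5 WT B) to 10 (without E9.5 null C) between E7.5 and E8.5 in WT and from 5 (without E8.5 null A) to 9 in null cells, and from 0 (without E8.5 WT B) to 3 (without E9.5 WT D) between E8.5 and E9.5 in WT and from 0 (without E8.5 null B) to 1 in null cells. Within types at E7.5 it ranged from 0 to 3, reached without WT A (*Mesp1* in Ectoderm and Intermediate mesoderm and *T* in Paraxial mesoderm, all lower in null cells). Those fits leave WT with 1 library, which is assumed to vary like the rest. For whole libraries, ranges over the fits without 1 library are given only for members whose null against WT difference changed sign in them. The log2 difference at E7.5 ranged from -0.25 to 0.38 for *T*, -3.33 to 0.12 for *Eomes*, -0.35 to 0.95 for *Msgn1*, -0.73 to 0.90 for *Lhx1*, -0.81 to 1.59 for *Mesp1*, -1.18 to 1.65 for *Mesp2*, -0.38 to 0.62 for *Gsc* and -0.034 to 0.37 for *Evx1*. At E8.5 it ranged from -1.28 to 0.50 for *Mesp2*, -0.62 to 0.095 for *Evx1*, -0.52 to 0.49 for *T*, -0.47 to 1.48 for *Eomes*, -0.52 to 0.46 for *Lhx1*, -0.77 to 0.031 for *Mixl1* and -0.20 to 0.0010 for *Tbx6*. At E9.5 it ranged from -0.078 to 0.68 for *Lhx1*, -0.14 to 0.54 for *Mixl1*, -0.25 to 1.24 for *Msgn1* and -0.43 to 0.13 for *Evx1*. Members not listed at a stage kept their sign in all 24 settings run on whole libraries there. For E7.5 these were *Mixl1* (0.34 to 1.68 over those settings) and *Tbx6* (0.37 to 0.96).

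No paired analysis was possible because nothing in the names of the libraries ties a null library to a WT library of the same embryos, so the replicate block was not run. Groups at E7.5 and E8.5 held 2 libraries each. In whole libraries their p-values rest on a spread estimated over all libraries of the fit, those of E9.5 included. They therefore do not measure the spread between those 2 libraries alone. Within cell types each stage and type was fitted alone. *Eomes* and *Msgn1* after E7.5 rest on few UMIs. The fits without E9.5 WT C and D were chosen after seeing the data.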
